A study of Xenopus laevis with 15 samples.

Results

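The genes described here are nmral1.L and nmral1.S, the copies of the NmrA-like gene nmral1 in the African clawed frog, Xenopus laevis. The frog's genome holds 2 related copies, or homeologs, of many genes, marked .L and .S. The pair makes up 2 of the 37018 gene rows counted, and no further row was named after NmrA in the deposited tables or in the RefSeq table. Both were chosen by Entrez identifier because their rise in lead-exposed embryos was already known to be among the largest, so their levels against control are given as a description, with no test. In the authors' deposited table nmral1.S is written nmral1.L, and nmral1.L has only a placeholder symbol and no gene name; the symbols used here are those of RefSeq.

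Whole embryos from an established colony were placed in the exposure water at 48 h after fertilization (near stage 29 of Nieuwkoop and Faber), kept there for 96 h at 21 °C and sampled at 6 days of age. The 3 groups were water control, lead 210 and lead 630, where the exposed groups received lead (II) nitrate at 210 or 630 ng/L by the sample labels and at the same figures in µg/L by the treatment protocol, so no unit is used below. Each group had 5 libraries (A to E), each a pool of 3 individuals, and the labels do not tell whether the pools had separate dishes or clutches behind them; p-values then measure the spread between pools, which may be partly technical. Total counts ran from 10824519 to 24656838 per library. A floor of 3 counts was used, which equals 0.274 CPM (counts per 1000000 counts of the library) at the smallest of these depths and 0.124 CPM at the largest. In a whole-embryo pool, fewer cells that express a gene and less RNA per cell cannot be told apart. Of 40 marker genes for 8 tissues of the tadpole, 37 were matched by symbol and 35 reached a mean of 1 CPM in controls.

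NmrA-like proteins carry a nucleotide-binding fold of the short-chain dehydrogenase kind but are known as sensors rather than enzymes. The family is named after NmrA, a fungal protein that binds dinucleotides and restrains genes of nitrogen use. Human NMRAL1, also called HSCARG, binds NADPH and changes its shape and partners with the ratio of NADPH to NADP+, and in human cells it has been described as binding argininosuccinate synthetase and as restraining NF-κB signalling. NADPH is the electron donor with which cells reduce glutathione and thioredoxin.

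The .S copy was readily counted in unexposed embryos. Its level in control libraries A to E was 46.0, 86.4, 27.2, 44.8 and 29.3 CPM, a mean of 46.7 ± 23.8 CPM (SD, n = 5). Library B lay highest, and the highest control was 3.17 times the lowest. At lead 210 the 5 libraries stood at 583, 665, 499, 384 and 869 CPM, a mean of 600.2 ± 183 CPM (SD, n = 5). At lead 630 they stood at 906, 1458, 766, 1373 and 720 CPM, a mean of 1045 ± 347 CPM (SD, n = 5). Every exposed library lay above every control: the lowest at lead 210 was 4.44 times the highest control, and the lowest at lead 630 was 8.34 times it.

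The .L copy was close to the floor without lead. Control libraries A to E held 3, 1, 10, 4 and 13 counts, or 0.172, 0.0710, 0.413, 0.324 and 0.720 CPM, with a mean of 0.340 ± 0.251 CPM (SD, n = 5). The control libraries A and B were at or below the floor of 3 counts. Under lead 210 the counts were 195, 120, 123, 183 and 290, or 14.1, 8.78, 9.07, 8.32 and 19.2 CPM, with a mean of 11.9 ± 4.73 CPM. Under lead 630 the counts were 180, 283, 387, 411 and 435, or 16.5, 19.5, 16.2, 24.9 and 18.0 CPM, with a mean of 19.0 ± 3.52 CPM (SD, n = 5 in each group). No exposed library overlapped with controls, and the lowest at lead 210 was 11.5 times the highest control. For both copies this separation is part of the rise they were chosen for, and how many other genes separate so was not counted. For nmral1.L only 1 of 5 controls reached the 0.682 CPM that the filter on low counts asks for. This copy thus entered the fit through its exposed libraries.

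**Figure D1:**
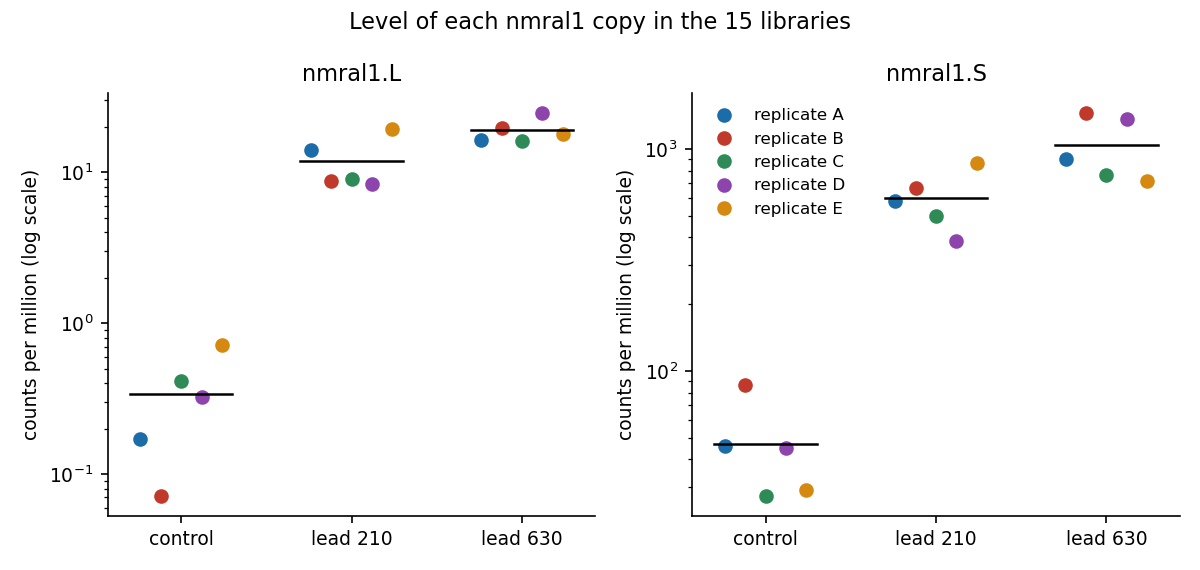
Level of nmral1.L (left) and nmral1.S (right) in CPM on a log axis, by group; each point is a library, coloured by its replicate letter, and the black line is the group mean. All exposed libraries lie above all controls for both copies, which were chosen for this rise, and lead 210 and lead 630 overlap.

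Expressed as fold changes, nmral1.L differed from control by 5.03 ± 0.37 on the log2 scale (SE) at lead 210 and by 5.70 ± 0.36 at lead 630, and nmral1.S by 3.69 ± 0.36 and 4.49 ± 0.38. Among the 25720 tested genes whose mean reached 1 CPM, nmral1.L ranked 2 by log2 fold change at both lead levels, and nmral1.S ranked 6 at lead 210 and 4 at lead 630. The fold of nmral1.L rests on 31 counts summed over the 5 controls against 1696 over the 5 libraries of lead 630. The ratio of these sums, each divided by its libraries' summed depth, was 52.4, with a 95% interval of 36.8 to 77.4 that covers counting error only. For nmral1.S the control sum was 3762 counts, and the same interval was narrow, 22.0 to 23.5. The authors' deposited table gives log2 fold changes of 5.72 for nmral1.L and 4.48 for nmral1.S at lead 630, and of 5.04 and 3.68 at lead 210. Calls were made with edgeR's quasi-likelihood test, at an adjusted p (Benjamini-Hochberg) under 0.05. By this rule 1.98% of the 27060 genes tested were higher and 0.303% lower at lead 630, and 1.76% were higher and 0.144% lower at lead 210; with the members chosen for this rise, nothing is read from their place among these.

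Among the tissue markers, some of those listed for kidney were higher in the lead groups. The summed level of the kidney markers was 52.9 to 66.6 CPM in controls, 73.0 to 102 at lead 210 and 74.9 to 111 at lead 630. Of 5 kidney rows, 3 were higher at each lead level, slc34a2.L, slc34a2.S and slc22a6.S, of which slc34a2.L and slc34a2.S are copies of the same gene. The rows lrp2.L and slc5a2.L did not pass (adjusted p = 0.974 and 0.653 at lead 630, 0.984 and 0.847 at lead 210, by edgeR's quasi-likelihood test). The endocytic receptor gene lrp2.L stood at 38.3 ± 6.13, 38.8 ± 8.98 and 39.1 ± 8.78 CPM (SD, n = 5 each), and no kidney row was at 0, although slc34a2.S was near the floor in controls at 0.234 ± 0.207 CPM. Of the 57 marker rows of all 8 tissues, 5 passed at lead 630 and 3 at lead 210, against the shares of all genes given above. At lead 630 these were the 3 kidney rows, 1 row of liver and 1 of epidermis. The part of these marker rows in the nmral1 values was not tested.

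The comparison of lead 630 with lead 210 asks whether the level differs between the exposed groups. This comparison was not itself used to choose the genes, but their rise at both lead levels was known when they were chosen. The mean of nmral1.L at lead 630 was 1.60 times that at lead 210, and that of nmral1.S was 1.74 times. The log2 fold change was 0.68 ± 0.23 for nmral1.L (95% interval 0.22 to 1.14) and 0.80 ± 0.33 for nmral1.S (0.16 to 1.44). Neither passed after adjustment over all genes (adjusted p = 0.932 for each by edgeR's quasi-likelihood test; unadjusted p = 0.0108 and 0.0285 from the same edgeR fit). The groups overlapped: 2 of 5 lead 630 libraries lay above all of lead 210 for nmral1.L, and 3 of 5 for nmral1.S. By that test 0% of the 27060 genes were higher and 0% lower between the exposed groups. An unadjusted p under 0.05 was found for 1260, fewer than that threshold would pass on average with no differences. DESeq2 called 6 and limma-voom 0. The order of mean levels was thus control, lead 210, lead 630 for each copy. For each copy the interval of the difference between the exposed groups lay above 0, their libraries overlapped, and the difference did not pass after adjustment over all genes. The copies were chosen for a rise that includes the lead 630 libraries, with their rise at lead 210 also known. This difference between the exposed groups, its interval and its unadjusted p may therefore be overstated. In means, lead 210 held 61.9% of the rise seen at lead 630 for nmral1.L and 55.5% for nmral1.S.

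Libraries that share a replicate letter also held this order in most cases. The ratio of lead 630 to lead 210 for nmral1.S was 1.55 for letter A, 2.19 for B, 1.53 for C, 3.57 for D and 0.829 for E. The nmral1.L ratios followed the same pattern, from 0.936 for letter E to 2.99 for D. Lead 210 E had the highest level of each copy in its group and letter E the lowest ratio, while lead 210 D had the lowest level of each copy and letter D the highest ratio. Sharing a letter is not known to mean a shared origin.

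The copies were then set against each other as the share of nmral1.L in the counts of both. This share is of counts, not per transcript length, so it does not compare transcript numbers. In controls A to E it was 0.372, 0.0821, 1.49, 0.717 and 2.40%, a mean of 1.01 ± 0.94% (SD, n = 5). At lead 210 it was 2.37, 1.30, 1.78, 2.12 and 2.17%, a mean of 1.95 ± 0.417%. At lead 630 it was 1.79, 1.32, 2.07, 1.78 and 2.44%, a mean of 1.88 ± 0.413% (SD, n = 5 each). The exposed groups overlapped almost wholly, with a difference of -0.0678 percentage points (lead 630 minus lead 210; exact two-sided permutation test over all splits of 5 against 5, p = 0.794, where the smallest possible p is 0.00794). The sign of this small difference turned without lead 210 A (0.0367 points) or without lead 630 B (0.0717 points).

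Control libraries differed in this share by more than counting error. The exact 95% binomial interval was 0.00208 to 0.457% for control B, with 1 of 1218 counts, and 1.29 to 4.07% for control E, with 13 of 541 counts; the interval of control E overlapped with those of lead 210, and that of control B with none of the exposed libraries. Such intervals and floors cover counting error only. How reads that match both copies were counted is not given in the sources used here, so the values of the less abundant copy, nmral1.L, are uncertain.

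**Figure D2:**
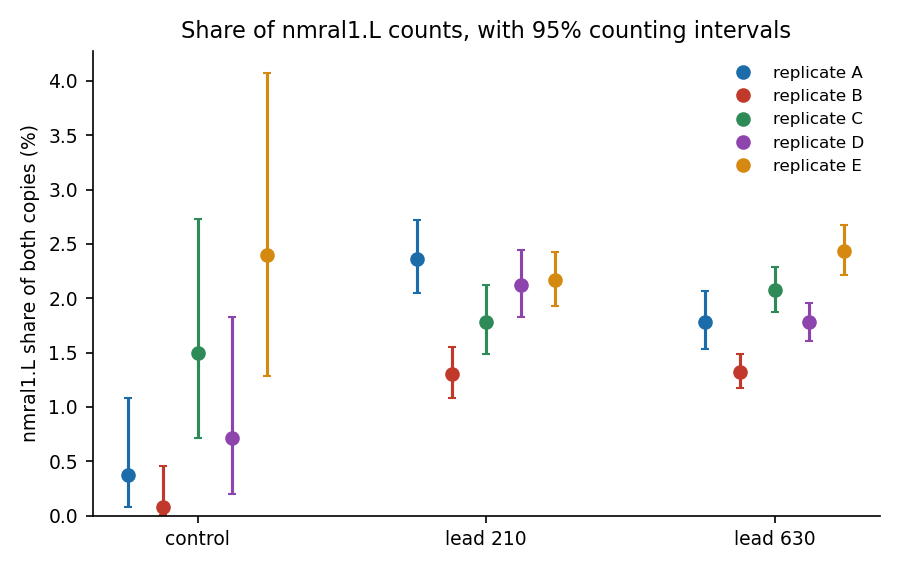
Share of nmral1.L in the summed counts of nmral1.L and nmral1.S (%), by group; points are libraries coloured by replicate letter, and bars are exact 95% binomial intervals. Controls spread from 0.0821 to 2.40%, and the 10 exposed libraries lie between 1.30 and 2.44%.

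The deviations of the copies from their group means ran in opposite directions in most controls and in the same direction in most lead libraries, a difference that was not tested. Among controls, library B was highest for nmral1.S and lowest for nmral1.L, while library E was highest for nmral1.L and second lowest for nmral1.S. Among lead 210 libraries, E was highest and D lowest for both copies. Among lead 630 libraries, B and D were the highest for both copies, and E was lowest for nmral1.S and C for nmral1.L. Over all 15 libraries the log2 CPM of the copies had a Pearson r of 0.94 (Spearman 0.90), and after subtracting group means an r of -0.25 (Spearman -0.11). Over the 10 lead libraries alone, a choice made after the values were seen, the same deviations had an r of 0.70 (Spearman 0.68), so the negative value rests on the controls, where nmral1.L had 1 to 13 counts. These are descriptions over libraries whose copies share depth and, for the first, the group differences.

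Genes whose pattern over the 15 libraries was most like that of nmral1.S were sought among the other 25719 genes at 1 CPM or more. Leaving out placeholder names, the 5 closest were txn.L, which encodes thioredoxin (r = 0.99), nqo1.L, which encodes NAD(P)H quinone dehydrogenase (0.98), gclc.S, whose product catalyses the first step of glutathione synthesis (0.98), mt4.L, a metallothionein (0.98), and comt.L, a catechol methyltransferase (0.98). The level of txn.L went from 25.2 ± 2.62 CPM in controls to 112 ± 26.0 at lead 210 and 146 ± 29.8 at lead 630 (SD, n = 5 each). That of comt.L went from 15.6 ± 2.64 to 39.4 ± 3.76 and 44.2 ± 4.56 CPM. Each is a gene that differs between the groups, and the group differences carry these correlations.

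For nmral1.L the 5 closest were sult2a1.L, a sulfotransferase (r = 0.99), fth1.2.L, a ferritin heavy chain (0.99), XB5796436.L (0.99) and MGC53066 (0.99), which have no functional name here, and ptgr1.1.L, a prostaglandin reductase that uses NADPH (0.98). The level of ptgr1.1.L went from 34.2 ± 3.87 CPM to 243 ± 49.9 at lead 210 and 306 ± 43.3 at lead 630 (SD, n = 5 each), or by 2.83 ± 0.14 and 3.16 ± 0.14 on the log2 scale (SE). That of sult2a1.L went from 17.3 ± 3.73 CPM to 45.3 ± 5.86 and 52.6 ± 5.56, or by 1.38 ± 0.13 and 1.60 ± 0.13. These genes were picked for following nmral1.L over the same libraries, so their differences between groups are a description, with no test. The other copy ranked 89 in likeness to nmral1.L, and nmral1.L ranked 66 in likeness to nmral1.S.

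With group means subtracted, the genes closest to nmral1.S included saysd1.L (r = 0.83), prkag1.L, a regulatory subunit of the AMP-activated kinase (0.79), vwa5a.S (0.79) and gnptg.L (0.78), over the same 15 libraries. Those closest to nmral1.L were anapc10.S (0.91), XB5729191.S (0.90), rev1.S (0.90), mettl21c.S (0.89) and slc1a5.L (0.88). The top ranks come from 25719 genes compared over few libraries, and the control deviations of nmral1.L rest on 1 to 13 counts.

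Genes listed for the production of NADPH, the ligand of the human protein, were higher in part. The list also holds genes whose enzymes do not make NADPH themselves. Among them are tkt.L, rpia.L and taldo1.L, each called higher at lead 630. The taldo1.L call ended in a fit to the 2 groups alone, and without control A or B or lead 630 B or C (adjusted p up to 0.0888 by edgeR's quasi-likelihood test). Of 32 tested rows of this list, 10 were higher and 0 lower at lead 630, and 8 were higher and 0 lower at lead 210, against the shares of all genes given above. Its median log2 fold change reached 0.16 at lead 630 and 0.14 at lead 210, where the medians over all genes tested were -0.0052 and -0.0021. This list and those below were chosen with earlier results of these data known. Their counts beside the shares of all genes are therefore a description, with no test.

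Genes of the pentose phosphate pathway were among those that rose. The gene pgd.L, for phosphogluconate dehydrogenase, went from 32.2 ± 2.03 to 50.2 ± 4.15 and 56.0 ± 4.73 CPM (0.64 ± 0.07 at lead 210 and 0.79 ± 0.07 at lead 630), and the transketolase gene tkt.L differed by 0.58 ± 0.08 and 0.76 ± 0.08. The other transketolase copy, tkt.S, did not pass (-0.18 ± 0.17 at lead 210 and 0.05 ± 0.17 at lead 630). The cytosolic isocitrate dehydrogenase copy idh1.S rose by 0.67 ± 0.10 at lead 210 and 0.61 ± 0.10 at lead 630. The malic enzyme gene me1.L rose from 27.4 ± 1.57 CPM in controls to 56.6 ± 3.28 at lead 210 and 62.5 ± 5.25 at lead 630.

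Among reductases that use NADPH or NADH, 14 of 36 tested rows were higher and 0 lower at lead 630. At lead 210, 11 were higher and 0 lower. Over all genes tested, 1.98% were higher at lead 630 and 1.76% at lead 210. The medians of the list were 0.29 at lead 630 and 0.24 at lead 210. Rows were matched by symbol, so the prostaglandin reductase gene ptgr1.1.L described above was not counted in this list. Thioredoxin reductases recharge thioredoxin. Their gene txnrd1.L rose from 3.99 ± 0.469 CPM to 14.6 ± 2.91 at lead 210 and 17.2 ± 2.26 at lead 630, and txnrd1.S from 2.34 ± 1.14 to 13.9 ± 2.27 and 13.4 ± 1.19 CPM. The third, txnrd3.L, rose from 73.1 ± 5.83 to 169 ± 8.34 and 183 ± 16.5 CPM. Its other copy, txnrd3.S, did not pass (0.24 ± 0.13 at lead 210 and 0.16 ± 0.13 at lead 630). The glutathione reductase gene gsr.L rose by 1.78 ± 0.14 at lead 210 and 2.09 ± 0.14 at lead 630, and nqo1.L by 1.05 ± 0.09 and 1.40 ± 0.09. The gene htatip2.L, whose human counterpart is also an NADPH-binding protein of the short-chain dehydrogenase kind, rose by 0.65 ± 0.08 and 0.70 ± 0.08 (SE throughout).

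NRF2 is the transcription factor of the response to oxidants and electrophiles, and KEAP1 is the adaptor that holds it down. Of 21 tested rows for NRF2, its partners and its regulators, 5 were higher and 0 lower at each lead level. The share of all genes tested that were higher was 1.98% at lead 630 and 1.76% at lead 210. Medians of the list were 0.07 at lead 630 and 0.09 at lead 210. The genes of NRF2 itself did not pass: nfe2l2.L differed by -0.13 ± 0.07 at lead 630 and -0.07 ± 0.07 at lead 210, and nfe2l2.S by -0.15 ± 0.08 and -0.0016 ± 0.08 (adjusted p from 0.445 to 0.996 by edgeR's quasi-likelihood test). Both KEAP1 copies rose, keap1.L from 11.3 ± 1.52 CPM to 19.9 ± 1.83 at lead 210 and 18.4 ± 2.76 at lead 630, and keap1.S from 9.90 ± 1.45 to 16.9 ± 2.34 and 17.0 ± 1.94 CPM. The gene sqstm1.L, for the autophagy receptor that binds KEAP1, rose by 1.55 ± 0.11 and 1.70 ± 0.11.

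The remaining members of that list that rose were the related factor gene nfe2l1.S (0.26 ± 0.06 and 0.28 ± 0.06) and the repressor gene bach1.S (0.79 ± 0.15 and 0.66 ± 0.15). Their other copies did not pass, nfe2l1.L (0.08 ± 0.10 at lead 210 and -0.00017 ± 0.10 at lead 630) and bach1.L (0.29 ± 0.17 and 0.10 ± 0.17). The bach1.S call at lead 630 ended without control A, C or D or without lead 630 A, B or C (adjusted p up to 0.0819), and the nfe2l1.S call at lead 210 without control A or E or lead 210 C (up to 0.0634).

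NF-κB signalling genes, which the human protein is described as restraining, gave no call in the edgeR fit to all libraries. Of 35 tested rows, 0 were higher and 0 lower at either lead level by edgeR's quasi-likelihood test. In that fit 3 rows had an unadjusted p under 0.05 at lead 630 and 4 at lead 210. Of all 27060 genes tested, 3502 and 3479 did. At lead 630 DESeq2 and limma-voom each called 1 higher. At lead 210 both called 0. With edgeR, 1 row was called higher at each lead level without control D, and 1 at lead 630 without lead 630 A. The medians were 0.0053 at lead 630 and 0.06 at lead 210. With 1.98% of all genes tested higher at lead 630 and 1.76% at lead 210, 0 of 35 rows is near those shares. The gene commd7.S, whose human counterpart has been described as an NMRAL1 partner in this pathway, differed by 0.15 ± 0.12 at lead 630 and 0.21 ± 0.12 at lead 210 (adjusted p = 0.681 and 0.495 in that edgeR fit).

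In the list of the urea cycle and nitric oxide synthesis, 1 of 12 tested rows was higher and 0 lower at each lead level. Its medians were -0.01 at lead 630 and 0.10 at lead 210. Of all genes tested, 1.98% were higher at lead 630 and 1.76% at lead 210. A count of 1 row in 12 is too small to be set apart from those shares. The argininosuccinate synthetase gene ass1.S stood at 12.4 ± 3.65 CPM in controls, 12.6 ± 5.60 at lead 210 and 10.9 ± 1.36 at lead 630 (SD, n = 5 each), and differed by -0.20 ± 0.27 at lead 630 (adjusted p = 0.828 by edgeR's quasi-likelihood test). The row that was higher was otc.S, for ornithine transcarbamylase, at 0.484 ± 0.205 CPM in controls and 1.63 ± 0.725 at lead 630. Its call at lead 630 ended without control C (adjusted p = 0.0509), and at lead 210 without control A or C or lead 210 A, C or D (up to 0.0885); limma-voom did not call it at lead 210 (0.0537), and DESeq2 called 2 rows of this list at each level. With edgeR, 2 rows were called at lead 210 without lead 210 B or E. Large log2 fold changes that did not pass in the main fit were those of cps1.L and nags.L, both under 1 CPM in controls. They were 3.97 ± 0.95 at lead 210 and 3.04 ± 0.98 at lead 630 for cps1.L, and 1.36 ± 0.48 and 1.33 ± 0.47 for nags.L. The libraries were very unequal for cps1.L, at 7.49 ± 8.81 CPM at lead 210 and 3.87 ± 2.07 at lead 630 (SD, n = 5 each). Of the 12 rows, 9 had a value above 0 at lead 210 and 6 at lead 630.

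**Figure D3:**
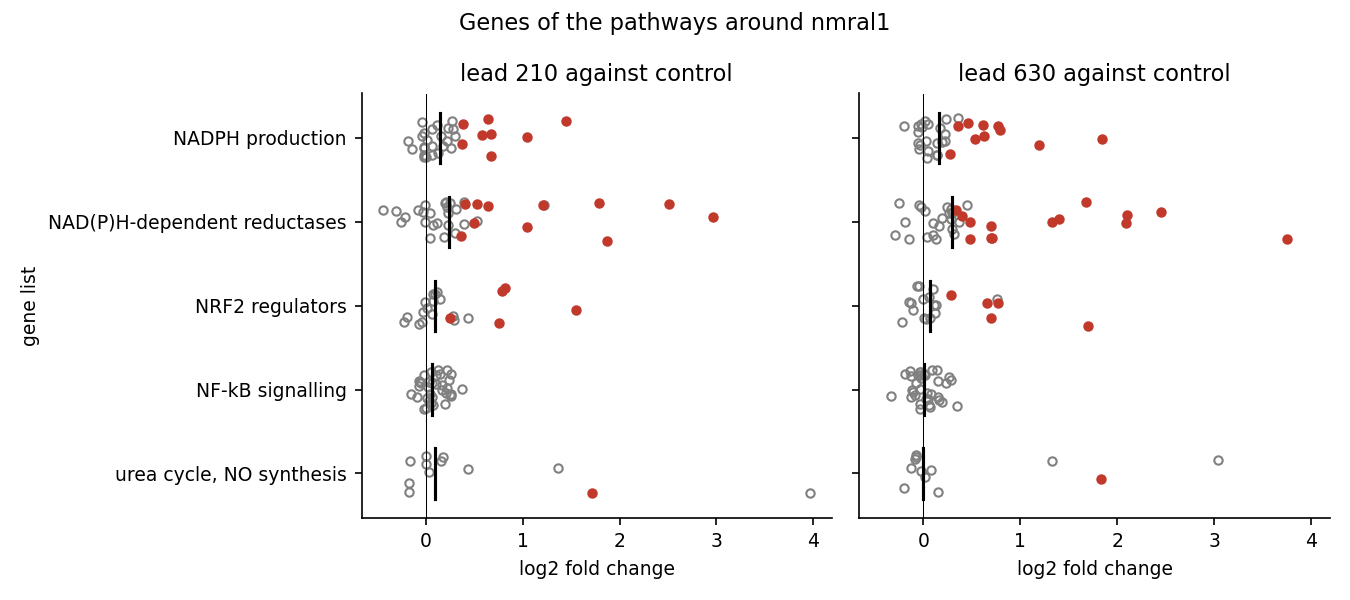
Log2 fold change against control of every tested row in the 5 gene lists, at lead 210 (left) and lead 630 (right); filled red points passed an adjusted p of 0.05 by edgeR's quasi-likelihood test, open grey points did not, and the black bar is the list's median. At lead 630, 10 of 32 rows of the NADPH production list, 14 of 36 reductase rows and 0 of 35 NF-κB rows are filled. Over all genes tested, 1.98% were higher and 0.303% lower at that level. The lists were chosen with earlier results of these data known.

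Genes beside the copies on their chromosomes were examined in the order given by RefSeq for assembly Xenopus_laevis_v10.1, with 4 protein-coding genes taken on each side. No gene of that table overlapped with either copy. Around nmral1.L, 6 of 8 neighbours were tested and none passed at either lead level, with log2 fold changes of -0.11 to 0.39 at lead 630 and -0.06 to 0.14 at lead 210 (smallest adjusted p = 0.107 and 0.684 by edgeR's quasi-likelihood test). At an unadjusted p under 0.05 they were 1 and 0. Around nmral1.S, 7 of 8 were tested and none passed, with -0.27 to 0.07 at lead 630 and -0.36 to 0.11 at lead 210 (smallest adjusted p = 0.344 and 0.187 from edgeR). At an unadjusted p under 0.05 they were 1 and 2, and DESeq2 and limma-voom also called 0 of the neighbours of either copy. Of the 27060 genes tested, 1.98% were higher and 0.303% lower at lead 630, and 1.76% and 0.144% at lead 210. No call among so few neighbours is near those shares. In the same edgeR fit 3502 of all genes had an unadjusted p under 0.05 at lead 630, and 3479 at lead 210.

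Some of these neighbours had nearly the same mean in every group. The gene hmox2.S, for the constitutive heme oxygenase, lies next to nmral1.S and had means of 23.5, 25.4 and 24.6 CPM in control, lead 210 and lead 630. The gene mgrn1.S, for an E3 ubiquitin ligase, had 115, 114 and 116 CPM. On the .L side lies cdip1.L, whose human counterpart is a p53 target linked to cell death, with a gene not analysed here between it and nmral1.L; it had 22.8, 23.3 and 21.3 CPM. The gene atxn2l lies within 4 genes of both copies, and neither atxn2l.L (0.06 ± 0.08 at lead 630) nor atxn2l.S (-0.02 ± 0.08) passed. Other neighbours differed more, also without passing. LOC108704211, next to nmral1.S on its other side, had 14.0, 10.9 and 11.6 CPM in control, lead 210 and lead 630. On the .L side antkmt.L had 9.96, 10.9 and 13.0 CPM.

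**Figure D4:**
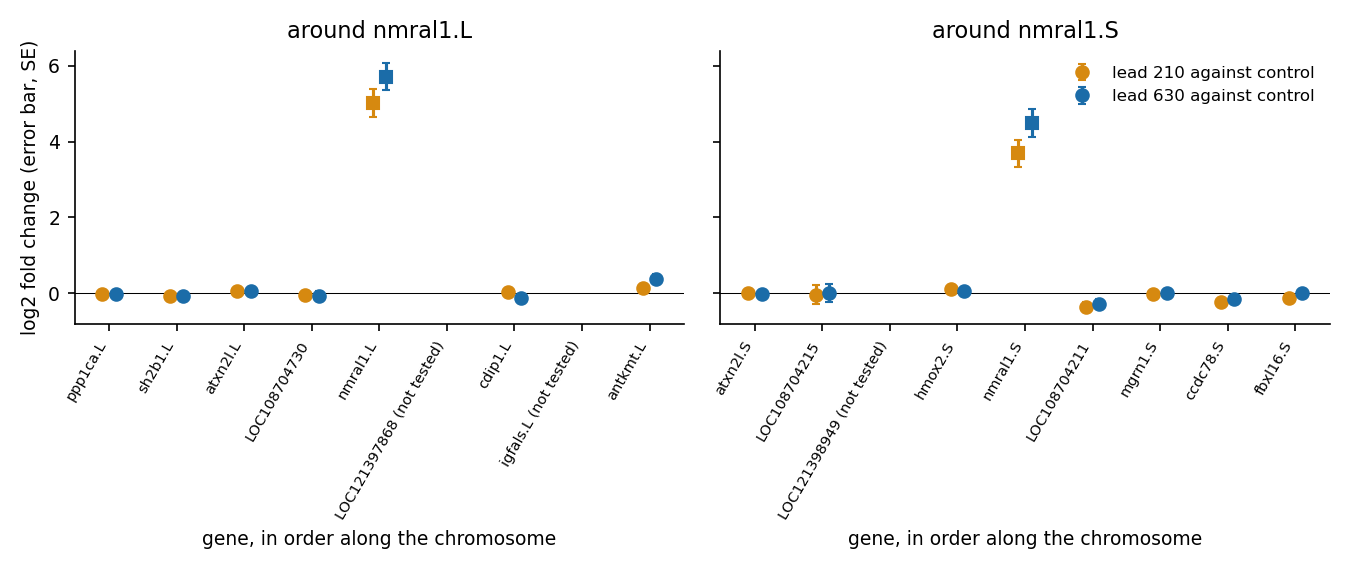
Log2 fold change against control (SE as error bars) of nmral1.L (left) and nmral1.S (right), drawn as squares, and of the 4 protein-coding genes on each side in RefSeq order, drawn as circles; orange is lead 210 and blue lead 630. The tested neighbours lie between -0.36 and 0.39, and the nmral1 copies between 3.69 and 5.70. The copies were chosen for this rise, so their distance from the neighbours is a description, with no test.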

How the data were processed

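Libraries were poly(A)-selected from 250 ng of total RNA with a directional kit, per the labels' protocols. The submitters' processing notes name kallisto, HISAT2, Trim Galore and edgeR and give no versions. Which genome build, counting tool and strand setting were used is not given in the sources used here. The authors deposited raw read counts per Entrez gene. The authors also deposited 2 tables of comparisons with log2 fold changes, a likelihood-ratio score, p-values and adjusted p-values.

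Counts were fitted here with edgeR 4.0.16 in R 4.3.3: filterByExpr (minimum count 10), TMM factors of 0.977 to 1.03, and 1 robust quasi-likelihood fit over 15 libraries with group as the term, without a block. Benjamini-Hochberg adjustment ran over 27060 genes, with calls under 0.05. SEs were back-calculated from the quasi-likelihood F statistic, and nominal 95% intervals of fold changes are 1.96 SEs. That multiple is of the normal curve, so these intervals are narrower than the reference of the F test would give. CPM uses TMM-scaled library sizes, except for the summed tissue markers, which use library totals; log2 CPM used a prior count of 2. The share test used SciPy 1.17.1. The edgeR test was tried on simulated counts with known changes. It recovered 65.7% of 1.5-fold changes at lead 630 against control, 53.7% at lead 210 and 59.7% between the lead groups. Of 4-fold changes it recovered 98.5 to 100%. False calls made up 4.65 to 5.95% of all calls. The changed genes had a mean of at least 1 CPM, and libraries were simulated as independent. Changes in genes of lower level, and deviations shared by a letter, were therefore not covered. All 30 within-group pairs of libraries differed by more than sampling noise (chi-square per gene 4.11 to 16.3).

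The members and gene lists were chosen with earlier results of these data known. Named list genes were the up to 6 with the smallest p among those called, plus commd7, ass1, nfe2l2, keap1 and nqo1, and 1 gene that is not reported here; of the RefSeq table, 33597 identifiers matched. Same-letter libraries deviated together in some pairs and not in others. The main fit did not take letters as pairs, and a fit with the letter as a block is given below. No nmral1 sequence is printed.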

Additional observations from a re-analysis of the deposited data

How the results depend on the processing

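The log2 fold changes of nmral1.L and nmral1.S against control kept their direction, and moved by less than the spread between replicates, under 8 other settings each (2 normalizations, 2 filters, DESeq2 1.42.0, limma-voom from limma 3.58.1, 2 groups alone, replicate block) and with each library left out. The copies were chosen for this rise and every exposed library lay above every control. Their kept direction is therefore no test of the rise. With a library left out, nmral1.L ranged from 5.49 to 6.14 at lead 630 and from 4.78 to 5.46 at lead 210, and nmral1.S from 4.34 to 4.83 and from 3.52 to 4.03. For lead 630 against lead 210 the value stayed positive in all 18 alternatives, with an adjusted p of 0.508 to 1.0 for nmral1.L and 0.591 to 1.0 for nmral1.S. The share of nmral1.L differed by -0.229 to 0.0717 percentage points with a library left out.

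Over all genes, DESeq2 called 191 lower at lead 630 where the edgeR test called 82. For lead 210 it called 776 in all, 115 of them lower, against 39 lower, and between the lead groups 6, of which 2 were higher and 4 lower. With the replicate letter as a replicate block 142 were lower at lead 630 and 88 at lead 210. The block gave 0.73 for nmral1.L and 0.75 for nmral1.S between the lead groups. In that comparison 2108 genes had an unadjusted p under 0.05 with the block and 1260 without it, by edgeR's quasi-likelihood test. Correlations of same-letter deviations ran from -0.118 to 0.311, and 3 or 4 of 10 libraries correlated best with their own letter. With a library left out, genes lower at lead 630 numbered 44 (without control C) to 95, with 45 without lead 630 C and 48 without lead 630 E. At lead 210 they numbered 12 (without lead 210 D) to 37, with 17 without control A or B and 19 without lead 210 A. Between the lead groups they numbered 0 to 1, the 1 being higher and without lead 630 E. The cause of these shifts was not tested. For single genes and list counts, 2638 values stayed on their side, 41 calls were lost, 4 gained, 17 list counts moved by over 1.5 times or to or from 0, and no called value turned its sign. Depth limits nmral1.L in controls, where 3 counts were the floor.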

Other observations

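The replicate letter B held the lowest share of nmral1.L in each of the 3 groups, a pattern seen only after the values were known and not tested. The share was 0.0821% in control B, 1.30% in lead 210 B and 1.32% in lead 630 B. In lead 630 the exact 95% interval of library B, 1.17 to 1.48%, did not overlap with that of any other library of the group, the nearest being 1.54 to 2.06% for library A. In lead 210 the interval of library B, 1.08 to 1.56%, overlapped only with that of library C, 1.49 to 2.13%. Letter E held the highest share in controls (2.40%) and at lead 630 (2.44%), and the second highest at lead 210 (2.17%). What the letters stand for is not given in the sources used here.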
